A study of Plutella xylostella with 12 samples.

Results

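The let-7 locus of insects encodes small regulatory RNAs that mark developmental time, and 3 of the 105 miRNA names listed in these libraries belong to it: pxy-let-7-5p, pxy-let-7-3p and pxy-mir-100-3p. They were chosen by name, with earlier results of these data known, and the rows that share a name were summed in each of 12 libraries. All 3 had enough counts to be among the 73 names tested for differences between groups. Neither the 5p arm of mir-100 nor an arm of miR-125, which belongs to the locus in flies, was listed under a name of its own.

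In insects, let-7 and miR-100 are processed from a shared primary transcript, which in *Drosophila* also carries miR-125. In *Drosophila* this transcript is induced by the steroid hormone ecdysone around metamorphosis, and let-7 then acts in the remodelling of neurons and muscles and in the exit of wing cells from the cell cycle. A precursor hairpin gives a 5p and a 3p product, of which one is usually kept in the silencing complex and the other degraded. The 5p product is the retained one for let-7 in animals.

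The libraries were prepared from whole bodies of *Plutella xylostella*, the diamondback moth, as 3rd instar larvae of the insecticide-susceptible strain Waite. Chlorantraniliprole, an insecticide that opens the ryanodine receptor of muscle, was given at 0.1 ppm (high dose) or 0.01 ppm (low dose), and total RNA was taken from the larvae still alive after 24 h or 6 h. There were 3 biological replicates in each of the groups high dose at 24 h, low dose at 24 h, high dose at 6 h and low dose at 6 h. The groups all hold exposed survivors, so none is an untreated reference, and the control larvae named in the labels were not analysed here. Larvae at 24 h had also aged longer since exposure began than those at 6 h. Exposure time and larval age therefore cannot be told apart. Because whole bodies were used, fewer cells of a type and less RNA per cell cannot be told apart. The muscle miRNA pxy-mir-1-3p was listed in all 12 libraries.

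Listed counts per library ran from 28682 to 40388 at the high dose and from 37741 to 41214 at the low dose after 24 h, and from 19692 to 25815 and from 10714 to 30676 in these doses after 6 h. Time and depth therefore moved together, and every library at 24 h except high-dose replicate 1 was deeper than every library at 6 h. No row held fewer than 5 counts, so a name that is not listed may lie under that floor and is not a measured 0. Levels are given as CPM, which are counts scaled to a common library size with TMM factors. A name was called when its adjusted p was under 0.05 in edgeR's quasi-likelihood test with Benjamini-Hochberg adjustment over the 73 names.

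The mature guide strand pxy-let-7-5p was highest in larvae given the high dose and collected at 24 h. Its summed counts there were 109, 157 and 191, which correspond to 3755, 4153 and 4263 CPM. Low-dose larvae at 24 h had counts of 81, 64 and 104, or 2346, 1684 and 2771 CPM. These 2 groups did not overlap, as was the case for 41.1% of the tested names. The lowest high-dose library lay well above the highest low-dose library.

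At 6 h the counts were 44, 62 and 52 in high-dose larvae, or 2221, 2581 and 2115 CPM. In low-dose larvae at 6 h they were 60, 20 and 36, or 1810, 1895 and 1634 CPM. The dose groups at 6 h did not overlap either, as was the case for 15.1% of the tested names, but the gap between them was narrow. By mean level the order was 4057 ± 267 CPM (SD, n = 3) for the high dose at 24 h, 2305 ± 244 for the high dose at 6 h, 2267 ± 548 for the low dose at 24 h and 1780 ± 133 for the low dose at 6 h. The high dose at 6 h overlapped the low dose at 24 h, and the low dose overlapped between 24 h and 6 h.

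**Figure D1:**
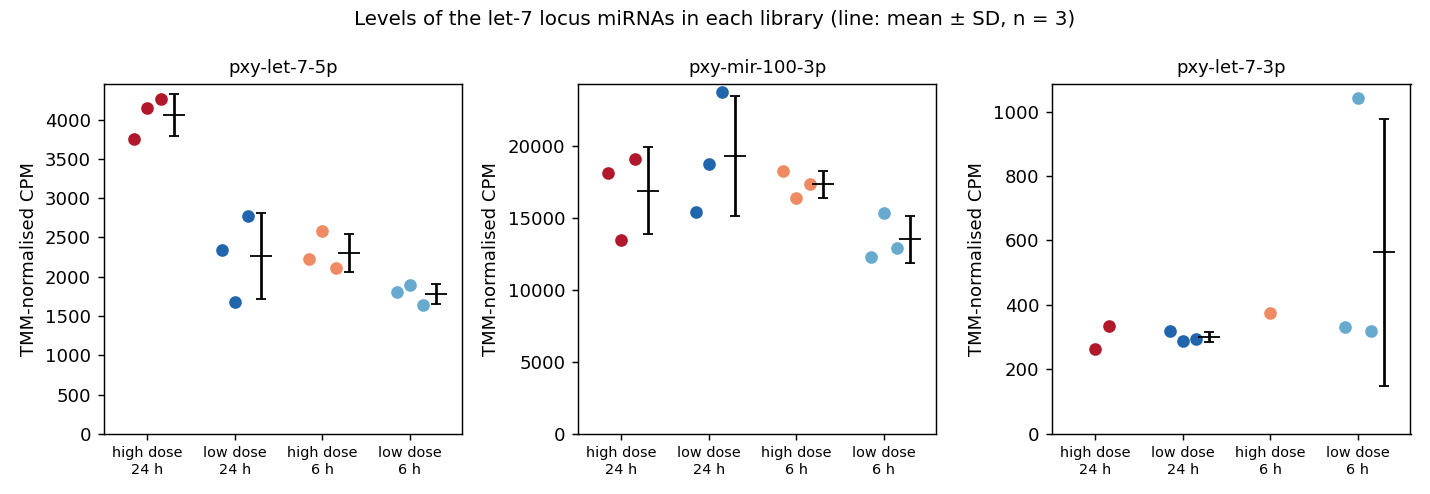
TMM-normalised CPM (vertical axes, each from 0) of pxy-let-7-5p, pxy-mir-100-3p and pxy-let-7-3p in each library, by group. Points are libraries, and horizontal and vertical lines are the mean and SD of groups in which all 3 libraries list the name. The 3 high-dose libraries at 24 h lie between 3755 and 4263 CPM for pxy-let-7-5p, above all other libraries. The share of tested names with such a separation from all other libraries was not counted.

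Between doses at 24 h, pxy-let-7-5p rose 1.79-fold in high-dose larvae (log2 fold change 0.84 ± 0.17 SE, adjusted p = 0.00116, edgeR). In this comparison 6.85% of the tested names were called higher and 41.1% had groups that did not overlap. Levels of pxy-let-7-5p were 1.31-fold higher at the high dose after 6 h, which did not pass (0.38 ± 0.21 SE, adjusted p = 0.364, edgeR). At 6 h, 0% of the tested names were called higher and 15.1% had groups that did not overlap. The difference of the 2 dose effects was 0.46 ± 0.27 on the log2 scale (adjusted p = 0.405, edgeR interaction term, with 2.74% of the tested names called higher), so the dose effect was not shown to differ between the times.

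Over time, pxy-let-7-5p rose 1.76-fold in high-dose larvae (24 h against 6 h, log2 0.82 ± 0.18 SE, adjusted p = 0.00559, edgeR), where 2.74% of the tested names were called higher. By p it stood at place 3 of the 73 tested names in that comparison. All 3 libraries at 24 h stood above all 3 at 6 h, as was the case for 20.5% of the tested names in either direction. In low-dose larvae the change over time was 0.36 ± 0.20 and did not pass (adjusted p = 0.243, edgeR), and the groups overlapped through low-dose replicate 2 at 24 h with 1684 CPM. Both calls on pxy-let-7-5p use the same 3 high-dose libraries at 24 h, so they are not separate evidence.

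The 2 calls on pxy-let-7-5p held under each of the 22 alternatives tried for each, which included the omission of every library in turn. Between doses at 24 h the log2 fold change lay between 0.81 and 1.22, with adjusted p from 7.19e-05 to 0.0070 (edgeR or DESeq2). Over time at the high dose it lay between 0.75 and 1.02, with adjusted p from 0.00189 to 0.0393. The upper end of the dose range came from upper quartile factors, which moved the median of all tested names at 24 h by 0.37. Relative to that median, pxy-let-7-5p was higher at the high dose by 1.01 with TMM, with relative log expression (RLE) factors, with library totals and with upper quartile factors. A change of scaling moves all names by about the same amount, so this equality follows from the calculation and adds no support.

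The most abundant name of the locus was pxy-mir-100-3p. Its arm is taken from the name and its place beside let-7 from other insects, and neither was checked here by sequence. Rows named pxy-mir-100-3p took 1.32% to 2.16% of the counts of a library and stood at place 12 to 15 among its names. Those of pxy-let-7-5p took 0.155% to 0.473% and stood at place 24 to 40. Counts of pxy-mir-100-3p were 525, 509 and 856 in high-dose larvae at 24 h, or 18086, 13463 and 19104 CPM. In low-dose larvae at 24 h they were 532, 711 and 890, or 15405, 18708 and 23713 CPM. The doses overlapped at 24 h, with the lowest level in high-dose replicate 2 and the highest in low-dose replicate 3.

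At 6 h the counts of pxy-mir-100-3p were 361, 393 and 427 in high-dose larvae, or 18219, 16360 and 17366 CPM. Low-dose larvae at 6 h had 406, 162 and 284, or 12247, 15349 and 12890 CPM. The low-dose libraries at 6 h were thus the lowest group, below all 3 high-dose libraries at the same time, in a comparison in which 15.1% of the tested names had groups that did not overlap. Mean levels were 16884 ± 3006 CPM (SD, n = 3) for the high dose and 19275 ± 4183 for the low dose at 24 h, and 17315 ± 931 for the high dose and 13496 ± 1637 for the low dose at 6 h. By mean, the low dose at 24 h stood highest, followed by the high dose at 6 h and the high dose at 24 h, and these 3 groups overlapped one another.

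Dose did not change pxy-mir-100-3p past the threshold at either time. Its log2 fold change was -0.19 ± 0.15 SE at 24 h (adjusted p = 0.45, edgeR), which is -0.03 relative to the median of all tested names, and turned to 0.03 with library totals, 0.19 with upper quartile factors and 0.10 without low-dose replicate 3 at 24 h. At 6 h it was 0.37 ± 0.16 (adjusted p = 0.217). The dose effects at the 2 times differed by -0.57 ± 0.22, which did not pass (adjusted p = 0.131, edgeR interaction term). This interaction had the opposite sign to that of pxy-let-7-5p, and neither passed.

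Over time in low-dose larvae, pxy-mir-100-3p rose 1.44-fold (24 h against 6 h, log2 0.53 ± 0.16 SE, adjusted p = 0.0350, edgeR), in a comparison in which 13.7% of the tested names were called higher and 35.6% had groups that did not overlap. This call was lost in 16 of 22 alternatives, among them DESeq2 (0.43, adjusted p = 0.0884), RLE factors (0.44), library totals (0.33), only the highest row (0.42, adjusted p = 0.121) and an equal row floor (0.53, adjusted p = 0.0857). Without low-dose replicate 3 at 24 h the value was 0.28 (adjusted p = 0.273). Other low-dose libraries whose omission ended the call were replicate 2 at 24 h (0.44) and replicates 1 (0.38) and 3 (0.42) at 6 h. So did the omission of a high-dose library that takes no part in the comparison itself: replicate 1 (0.44) or 3 (0.43) of the 24 h group, and replicate 2 or 3 (0.44 each) of the 6 h group. In high-dose larvae the change over time was -0.04 ± 0.16 (adjusted p = 0.918, edgeR), with signs that differed between scalings.

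**Figure D2:**
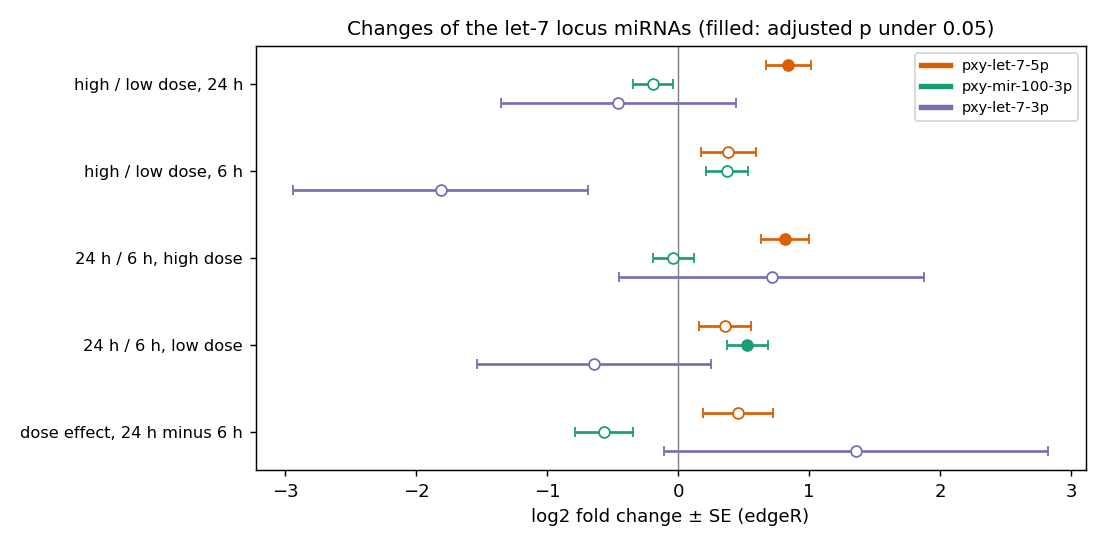
Log2 fold change with its SE (horizontal axis, edgeR) of the 3 names in 4 comparisons between groups; the lowest row is the dose effect at 24 h minus that at 6 h. Filled points have an adjusted p under 0.05: pxy-let-7-5p between doses at 24 h and over time at the high dose, and pxy-mir-100-3p over time at the low dose.

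Because both names are read in the same library, their ratio needs no scaling between libraries. The ratio uses the same pxy-let-7-5p counts as the tests above, so it is not separate evidence. In high-dose larvae at 24 h there were 0.208, 0.308 and 0.223 counts of pxy-let-7-5p for each count of pxy-mir-100-3p. In low-dose larvae at 24 h the ratio was 0.152, 0.090 and 0.117. At 6 h it was 0.122, 0.158 and 0.122 in high-dose larvae and 0.148, 0.123 and 0.127 in low-dose larvae. The high-dose libraries at 24 h were above the other 9 libraries, and among these 9 the doses and the times overlapped. How common such a separation is among ratios of other names was not counted.

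On the log2 scale the ratio was 1.05 higher at the high dose than at the low dose after 24 h (2.07-fold, means -2.04 ± 0.30 and -3.10 ± 0.38, SD, n = 3), with an exact two-sided permutation p = 0.1, the smallest that 3 against 3 libraries allow. After 6 h the difference between doses was 0.01 (exact permutation p = 1). The ratio was 0.87 higher at 24 h than at 6 h in high-dose larvae (exact permutation p = 0.1) and -0.18 in low-dose larvae (exact permutation p = 0.5). Averaged over both times, the dose difference was 0.53 (exact permutation p = 0.05, stratified by time), and averaged over both doses the time difference was 0.35 (exact permutation p = 0.17). None of the 6 tests passed after Benjamini-Hochberg adjustment (adjusted p of 0.2 or more, exact permutation tests). Those of 3 against 3 libraries could not pass whatever the values, since the smallest p they can give is 0.1.

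**Figure D3:**
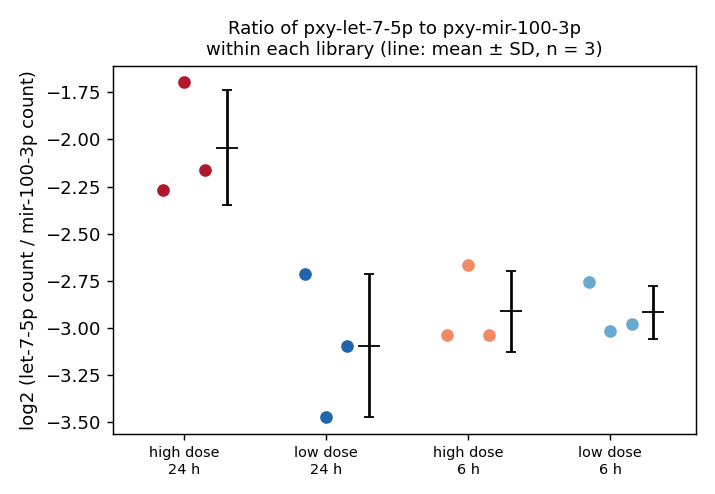
Log2 of the pxy-let-7-5p count over the pxy-mir-100-3p count (vertical axis) in each library, by group. Points are libraries, and lines are the mean and SD (n = 3). The high-dose libraries at 24 h, at -2.27 to -1.70, lie above the other 9. The share of other ratios that separate in this way was not counted.

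The passenger strand pxy-let-7-3p was near the limit of detection. It was listed in 9 of 12 libraries, in each with a single row. At 24 h, 2 of 3 high-dose libraries listed it, with 10 counts in replicate 2 and 15 in replicate 3, against 11 counts in each of the 3 low-dose libraries. At 6 h it had 9 counts in high-dose replicate 2 and was not listed in the other 2 high-dose libraries, whereas the low-dose libraries had 11, 11 and 7. The 3 libraries that did not list it were all from high-dose larvae.

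In CPM, pxy-let-7-3p lay between 264 and 375 in 8 of the libraries that listed it and at 1042 in low-dose replicate 2 at 6 h, the shallowest library. No comparison passed for it when an unlisted name entered the fit as 0: the log2 fold change between doses was -0.46 ± 0.90 SE at 24 h (adjusted p = 0.782, edgeR) and -1.81 ± 1.12 at 6 h (adjusted p = 0.449). Over time it was 0.72 ± 1.16 at the high dose (adjusted p = 0.827) and -0.64 ± 0.89 at the low dose (adjusted p = 0.75). The difference of the dose effects was 1.36 ± 1.46 (adjusted p = 0.635, edgeR interaction term). The fitted values that involve a high-dose group depend on libraries that do not list the name and are not measured folds. All 6 low-dose libraries listed it, and the low-dose value over time was -0.17 without low-dose replicate 2 at 6 h. With a floor at the same share of every library (5 counts in the shallowest), 1 library would still list it.

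Where both arms were listed, the 5p arm held most of the let-7 counts. Its share was 94.0% (95% exact binomial interval 89.3 to 97.1) and 92.7% (88.3 to 95.9) in the 2 high-dose libraries at 24 h that listed both. In low-dose larvae at 24 h it was 88.0% (79.6 to 93.9), 85.3% (75.3 to 92.4) and 90.4% (83.5 to 95.1). At 6 h it was 87.3% (77.3 to 94.0) in the 1 high-dose library, and 84.5% (74.0 to 92.0), 64.5% (45.4 to 80.8) and 83.7% (69.3 to 93.2) in low-dose larvae. The 3 libraries without the 3p arm are left out, so no group comparison of arm use was made, and intervals cover counting error only.

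Across the 15 precursors with both arms listed in at least 6 libraries, the mean share of the 5p arm ran from 2.28% to 99.3%, and it was over 50% for 9 of them. For let-7 it was 85.6% ± 8.68 (SD, 9 libraries). The nearest values were 84.1% ± 5.16 (SD, 11 libraries) for mir-1175 and 79.1% ± 6.16 (SD, 7 libraries) for miR-8509. Rows under 5 counts are missing, which removes more of a rare arm than of an abundant one.

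The rows behind each name were also compared, since the files do not say what sets the rows of a name apart. One row held most of the counts of pxy-let-7-5p, 87.4% ± 9.40 (SD, n = 12) on average, with 1 to 4 rows per library. Its highest row alone had 99, 140 and 178 counts in high-dose larvae at 24 h and 65, 58 and 81 in low-dose larvae, so the dose difference was present in that row. With only the highest row the log2 fold change at 24 h was 1.13 (adjusted p = 7.19e-05, edgeR). The highest row held 91.1% ± 2.02 (SD, n = 3) of the pxy-let-7-5p counts at the high dose and 82.9% ± 6.78 at the low dose after 24 h, and these ranges overlapped. With the floor set at the same share of each library, the highest row was all that was left of pxy-let-7-5p in each of the 12 libraries, and the log2 fold change was 1.15 between doses at 24 h and 0.92 over time at the high dose.

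For pxy-mir-100-3p the highest row held 85.2% ± 3.86 (SD, n = 12) of the counts, with 3 to 9 rows per library. Its second row had 9 to 70 counts. The share of the highest row was 81.2% ± 2.62 (SD, n = 3) at the high dose and 83.9% ± 2.02 at the low dose after 24 h, and 86.8% ± 3.18 and 89.1% ± 2.77 in these doses after 6 h, when the libraries were shallower and listed fewer rows. The part of depth in this share was not tested. Over the 73 tested names the median share of the highest row was 77.1%, and pxy-let-7-5p and pxy-mir-100-3p stood at place 17 and 21 from the top.

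**Figure D4:**
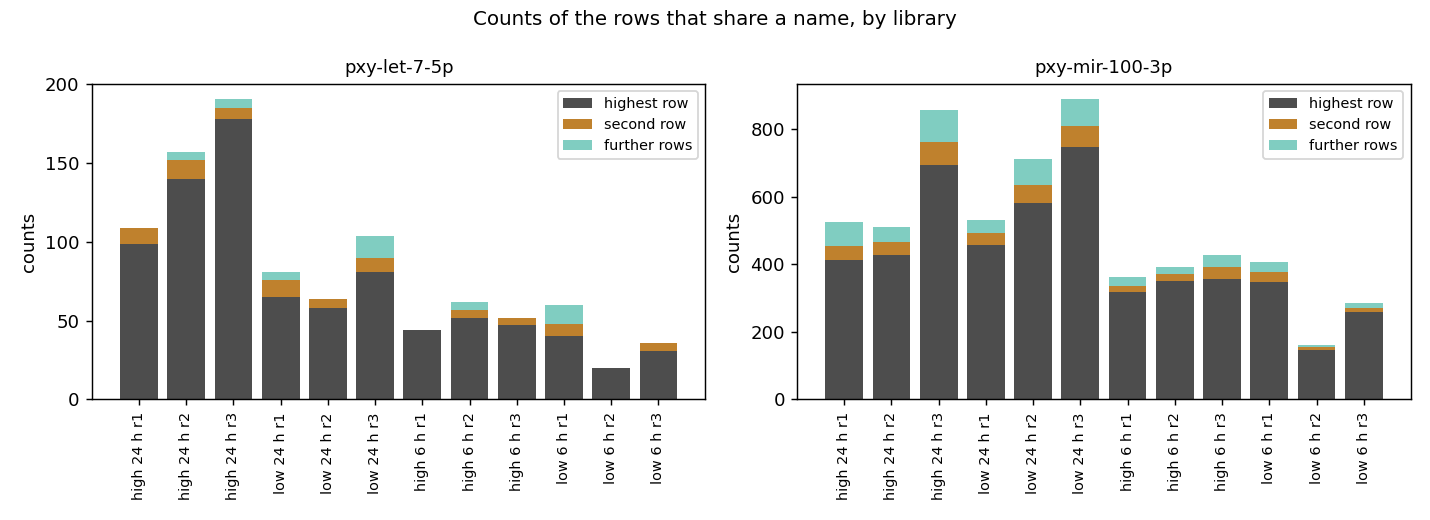
Counts of the rows named pxy-let-7-5p (left) and pxy-mir-100-3p (right) in each library, stacked as the highest row, the second row and all further rows. High and low are the doses, and r is the replicate. The highest row holds 66.7% or more of the counts of pxy-let-7-5p and 78.7% or more of those of pxy-mir-100-3p in each library.

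The names whose log2 CPM varied most like that of pxy-let-7-5p over the 12 libraries were pxy-miR-308-3p (Pearson r = 0.70, Spearman rho = 0.64), pxy-mir-12-5p (0.69 and 0.59) and pxy-miR-8521b-3p (0.64 and 0.49). These are descriptions over libraries that share group means and scaling, with no test. Without the 2 libraries farthest from the median of pxy-let-7-5p, which were high-dose replicates 2 and 3 at 24 h, r was 0.42, 0.48 and 0.52. The other members of the locus were less alike. By r, pxy-mir-100-3p stood at place 21 (0.29, and 0.53 without the same libraries). At place 44 stood pxy-let-7-3p (-0.18, and -0.44 without them), where an unlisted name entered as 0. Mean levels of pxy-miR-308-3p were 2094 ± 284 CPM (SD, n = 3) at the high dose and 1239 ± 175 at the low dose after 24 h, and 1282 ± 251 and 1225 ± 502 in these doses after 6 h. Those of pxy-mir-12-5p were 3364 ± 146 and 2317 ± 259 after 24 h, and 2479 ± 675 and 2340 ± 150 after 6 h. As for pxy-let-7-5p, the highest group mean of both was that of high-dose larvae at 24 h. For pxy-miR-8521b-3p the dose means were close at 24 h, with 1310 ± 414 CPM at the high and 1236 ± 79 at the low dose. At 6 h they were 727 ± 424 and 425 ± 178. The names that varied most against pxy-let-7-5p were pxy-miR-306-5p (r = -0.84), pxy-miR-263a-5p (-0.78) and pxy-miR-9b-5p (-0.77), for which r was -0.69, -0.48 and -0.74 without the same libraries.

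Of 14 other names from families tied to ecdysone, juvenile hormone or metamorphosis in insects, 11 could be tested. At 24 h 1 of them fell with dose, pxy-miR-281-5p, a miRNA of the midgut and Malpighian tubules that acts on an ecdysone receptor isoform in the silkworm, and 10 did not pass. It averaged 103630 ± 5905 CPM at the high dose and 158590 ± 3263 CPM at the low dose (SD, n = 3 each; adjusted p = 0.000822, edgeR), and the call was lost in 1 of 22 alternatives, with upper quartile factors (log2 -0.24). The other arm of miR-281, pxy-miR-281-3p, did not pass in this comparison (log2 0.07, adjusted p = 0.784, edgeR). The median log2 fold change of the 11 was -0.22, and that of all tested names -0.16. At 6 h 1 fell with dose, pxy-miR-14b-5p of the miR-14 family, which in *Drosophila* acts on the ecdysone receptor, and 10 did not pass (median -0.09, and -0.01 for all tested names). It averaged 1555 ± 173 CPM at the high dose and 2926 ± 783 CPM at the low dose (SD, n = 3 each; adjusted p = 0.0437, edgeR). This call was lost in 14 of 22 alternatives, among them DESeq2 (adjusted p = 0.0855), RLE factors, upper quartile factors and an equal row floor, with values from -1.07 to -0.69 when 1 library was left out. Of the 6 h libraries, the omissions that ended it were those of high-dose replicate 2 (-1.07), high-dose replicate 3 (-0.98), low-dose replicate 1 (-0.69) and low-dose replicate 3 (-0.96). Of the 24 h libraries, which take no part in the comparison, they were those of high-dose replicate 1 (-0.98) and of each low-dose replicate (-0.93). At 6 h 1.37% of the tested names were called lower, and at 24 h 9.59%.

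Over time in low-dose larvae 2 of the 11 rose, where 13.7% of the tested names were called higher, and 1 fell, where 5.48% were called lower. Levels of pxy-miR-281-5p rose 1.30-fold and those of pxy-mir-14a-3p 1.32-fold (adjusted p = 0.0393 and 0.0488, edgeR). Those of pxy-miR-14b-5p fell 2.57-fold, to 1178 ± 183 CPM (SD, n = 3) at 24 h, against 2926 ± 783 CPM at 6 h (adjusted p = 0.000582). This decrease passed in all 22 alternatives, while the major arm of that precursor, pxy-mir-14b-3p, did not pass (0.18, adjusted p = 0.465, edgeR). The call on pxy-miR-281-5p was lost in 15 of 22 alternatives, including library totals (0.18) and the omission of any low-dose library (0.25 to 0.33), and that on pxy-mir-14a-3p in 19 of 22, including DESeq2 (0.31) and library totals (0.20). Among the 12 omissions of a library, the first passed without high-dose replicate 2 of 24 h and without high-dose replicate 3 of 6 h, and the second without high-dose replicate 2 of 24 h and without low-dose replicate 2 of 6 h; each was lost in the other 10. Leaving out low-dose replicate 1 at 6 h gave 0.18 for pxy-mir-14a-3p, and leaving out low-dose replicate 2 at 24 h gave 0.27. The other arm of miR-281, pxy-miR-281-3p, did not pass over time in low-dose larvae (0.12, adjusted p = 0.75, edgeR). Nor did pxy-miR-281-3p pass for the difference of the dose effects (0.16, adjusted p = 0.878, edgeR). The median of the 11 over time in low-dose larvae was -0.16, and that of all tested names 0.07. Over time in high-dose larvae, where pxy-let-7-5p rose, 0 of the 11 passed (edgeR; median -0.18, and -0.01 for all tested names), with 2.74% of the tested names called higher and 4.11% lower. For the difference of the dose effects 1 passed, pxy-miR-281-5p at -0.65 (adjusted p = 0.016, edgeR), where 5.48% of the tested names were called lower. That call was lost in 8 of 21 alternatives: library totals (-0.30), upper quartile factors (-0.44), and (-0.58 to -0.50) the omission of high-dose replicate 3 or each low-dose replicate of 24 h, high-dose replicate 2 of 6 h and low-dose replicate 3 of 6 h.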

How the data were processed

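Small RNA libraries (TruSeq kit, HiSeq, reads of 50 nt) were made from total RNA, per the labels' protocols. The authors deposited a file of counts for each library, with columns Name and Count, per the file headers. Which mapper, miRNA annotation and row filter they used was not given in the sources used here. Each name fills 1 or more rows, which were summed. The labels call the replicates biological; what was pooled is not stated. No replicates were merged, since all pairs within a group differed by more than counting noise (chi-square over its degrees of freedom from 2.54 to 10.6). Sequences and positions are not printed here.

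Tests on counts used edgeR 4.0.16 (R 4.3.3), with filterByExpr at a minimum count of 10, TMM factors, and glmQLFit on all 12 libraries with a mean per group (8 residual degrees of freedom, biological coefficient of variation 0.135). SE is the log2 fold change over the square root of F. There were 5 comparisons over 73 names. Within-library ratios were compared by exact permutation. The edgeR step was tested on simulated counts, and the permutation step on constructed values with a fixed separation. Named besides the 3 members were the 3 names most and least like pxy-let-7-5p (log2 CPM, prior count 2), up to 4 passing list members per comparison and the 2 precursors nearest in arm share. Members and lists were chosen with earlier results of these data known. Alternatives were DESeq2 1.42.0, other scalings and filters, the highest row, an equal row floor, a replicate block, only the libraries compared, and each library left out.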

Additional observations from a re-analysis of the deposited data

How the results depend on the processing

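For pxy-let-7-5p, the call or lack of a call was the same in each of the 5 comparisons under all alternatives. The call on pxy-mir-100-3p over time at the low dose was lost with RLE factors (0.44), library totals (0.33), upper quartile factors (0.53), DESeq2 (0.43), at least 10 counts in every library (0.47), the highest row (0.42), an equal row floor (0.53) and only the libraries compared (0.51), and its value ran from 0.28 to 0.57 with 1 library left out. Values of pxy-mir-100-3p that changed sign, none of them called, were those between doses at 24 h with library totals (0.034) and upper quartile factors (0.19), which ran from -0.18 to 0.10 with 1 library left out, and those over time at the high dose with library totals (0.12), upper quartile factors (0.17), at least 10 counts in every library (0.070) and an equal row floor (0.040), which ran from -0.15 to 0.10. The uncalled dose value of pxy-let-7-3p at 24 h ran from -0.89 to 0.070 with 1 library left out. Without high-dose replicate 2 at 6 h, no library of that group listed pxy-let-7-3p, and its fitted values there have no meaning as folds. The log2 ratio of pxy-let-7-5p to pxy-mir-100-3p between doses at 6 h ran from -0.12 to 0.086 and that over time at the low dose from -0.37 to 0.012. The cause of these changes was not tested.

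The number of names called between doses at 6 h, 1 in the reported fit with 13 at an unadjusted p under 0.05, was 0 with RLE factors, an equal row floor, the replicate block or only the libraries compared, 2 with library totals or the highest row, 3 with no filter, 4 with upper quartile factors and 0 to 7 with 1 library left out. Over time at the low dose it was 14, and 8 with RLE factors, the highest row or only the libraries compared, 7 with at least 10 counts in every library, 6 with upper quartile factors or an equal row floor and 5 to 13 with 1 library left out. Over time at the high dose it was 5, and 3 with upper quartile factors or an equal row floor and 3 to 7 with 1 library left out. For the difference of the dose effects it was 6, and 3 with upper quartile factors and 3 to 9 with 1 library left out. Between doses at 24 h it was 12, and 7 to 19 with 1 library left out. There, the called names were 5 higher and 7 lower, and 13 higher and 2 lower with upper quartile factors or 7 higher and 4 lower with library totals.

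Replicate numbers were not shown to pair the libraries. In 0 of 6 pairs of groups were all same-numbered correlations of deviations over 0.1 (range -0.32 to 0.37), and 4 of 12 libraries correlated best with their own number. With 3 libraries a group, this check cannot exclude pairing. Between the dose groups at 24 h the same-numbered correlations were 0.056, 0.32 and 0.35, and those of differently numbered libraries ran from -0.33 to -0.015. With the replicate block the log2 fold change of pxy-let-7-5p was 0.85 between doses at 24 h and 0.81 over time at the high dose, and the block changed no call on the 3 names, whereas pxy-miR-14b-5p between doses at 6 h did not pass with it (-0.93). The alternatives for the other named miRNAs of the ecdysone and metamorphosis list were added after the data were seen. Depth limits pxy-let-7-3p most, at 7 to 15 counts where it was listed. It fell under the filter, and so gave no value, with at least 10 counts in every library, with an equal row floor, and with only the libraries compared between doses at 6 h and over time at the high dose. DESeq2 gave it no adjusted p between doses at 24 h.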

Other observations

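The count of pxy-let-7-3p was 11 in 5 of the 9 libraries that listed it, although their totals ran from 10714 to 41214. All 5 were low-dose libraries, out of 6 in all, and the other low-dose library had 7. This pattern was noticed in the values and was not tested.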
